A study of Mus musculus with 6 samples.

Results

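Ankrd1 and 9 genes of the YAP-TEAD pathway were followed in bulk RNA-seq of mouse abdominal aorta. The 10 genes, of 55426 in the deposited table, are Ankrd1, Amotl2, Lats2, Yap1, Wwtr1, Tead1, Tead2, Tead3, Tead4 and Vgll4, and each had 1 row, found by its symbol. Ankrd1 was chosen by its change between the genotypes compared here, where it ranked 11 by log2 difference among the 9669 tested genes whose mean was 5 TPM or more. The other 9 were chosen by their role in the pathway, with results of the same libraries known. The values of these 10 genes are therefore given as a description, without a test.

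All animals were male C57BL/6J mice that carried the Myh11-CreERT2 transgene, a tamoxifen-inducible Cre driven by the smooth muscle myosin promoter. The 3 Prdm16 SMKO mice were also Prdm16 fl/fl, while the 3 control mice had wild-type Prdm16. Both genotypes were given tamoxifen at 75 mg/kg/day for 5 days at 8 to 10 weeks of age, so Cre and tamoxifen were shared by the groups, and aortas were taken 2 weeks later. Each library was polyA-selected RNA of an abdominal aorta, which also holds endothelial cells, fibroblasts and macrophages, cells that do not make smooth muscle myosin. The labels say nothing on litter or day, so neither was modelled. Each SD is the spread among 3 libraries. Each SE comes from a fit over all tested genes (limma), which pulls a gene's variance toward that of genes at a similar level.

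Yap1 and Wwtr1 encode YAP and TAZ, coactivators that have no DNA-binding domain of their own and reach target genes through the TEAD transcription factors. The Hippo kinases LATS1 and LATS2 phosphorylate YAP and TAZ and keep them out of the nucleus, and VGLL4 competes with them for TEAD. Ankrd1 encodes a muscle ankyrin repeat protein, also called CARP, that is abundant in heart muscle, binds titin in the sarcomere, and is one of the most widely used YAP/TAZ readouts together with Ccn1 and Ccn2. YAP and TAZ act as sensors of matrix stiffness and stretch in many cells, vascular smooth muscle cells (VSMCs) included.

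The proximal promoters of Ankrd1, Amotl2 and Ccn1 are shown because these 3 target genes had the largest log2 differences, up or down. That ranking is among the genes followed here and the other YAP/TAZ targets listed below. Each window holds 30 bases of RefSeq sequence on mouse GRCm38.p6, read 5′ to 3′ on the gene's strand, and the capitals mark the core TEAD motif, CATTCC on either strand (GGAATG when read on the other).
Ankrd1, 210 bases before the start, chr19:36120037-36120066, minus strand: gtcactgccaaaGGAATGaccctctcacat
Ankrd1, 123 bases before the start, chr19:36119950-36119979, minus strand: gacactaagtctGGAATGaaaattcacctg
Amotl2, 65 bases before the start, chr9:102717727-102717756, plus strand: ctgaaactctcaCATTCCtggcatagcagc
Ccn1, 103 bases before the start, chr3:145650071-145650100, minus strand: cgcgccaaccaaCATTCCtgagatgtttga

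Ankrd1 had 2 matches, both on the strand opposite the gene, and Amotl2 and Ccn1 had 1 each on the gene's own strand. In GENCODE M21, 1 of the 6 Ankrd1 transcripts and 2 of the 14 Amotl2 transcripts start further upstream, so that the same bases lie in their untranslated regions. Promoters of 300 bases (250 before the start and 50 after) were found for 8 of the 10 genes, 12 promoters in all, and 9 of these 12 held at least 1 match. The Wwtr1 promoters overlap and share the same match, and neighbouring Tead3 promoters overlap, so the 12 are not separate sequences. Lats2, Tead3, Vgll4, Wwtr1 and Yap1 had a match in at least 1 of their promoters, and Tead2 had none. Of all 32851 mouse promoters of this length, 14.7% held the motif and 1.36% held it at 2 or more places, as Ankrd1 and 1 Tead3 promoter did. The 9 of 12 is not compared with that share, since promoters overlap and all genes but Ankrd1 were chosen by their pathway role. A TATAAA sequence was present in the Ccn1 promoter and in none of the 12, against 13.6% of all promoters. Neither an AP-1 site (TGANTCA, in 7.81% of all promoters) nor a CArG box, the sequence bound by SRF (1.63%), was matched in these windows. Such a match is a run of letters and was not measured as a bound site.

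Prdm16 was lower in every SMKO library than in any control. It stood at 33.4, 36.8 and 30.8 TPM (deposited relative transcript abundance, corrected for transcript length) in the controls and at 20.8, 27.7 and 14.8 TPM in the SMKO libraries, a log2 difference of -0.71 (SE 0.23). With limma over the 15775 genes that averaged 0.5 TPM or more, adjusted p was 0.376. Reads over all exons enter the TPM, including those outside the floxed segment and those from cells without Cre. Myh11, a defining VSMC gene, was abundant throughout, at 1691 to 3242 TPM in the controls and 1488 to 2507 TPM in the SMKO aortas.

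Ankrd1 (chr19:36111961-36120099, GRCm38, minus strand, ENSMUSG00000024803) had the largest difference of the 10 genes. Its level was 6.40, 6.67 and 4.74 TPM in the control libraries and 36.9, 39.3 and 27.9 TPM in the SMKO libraries. The lowest SMKO value was thus several times the highest control value, and within each group replicate 3 was the lowest library. The means were 5.94 ± 1.05 TPM (SD, n = 3) and 34.7 ± 6.00 TPM (SD, n = 3), a ratio of 5.85 and a log2 difference of 2.45 (SE 0.20) on the log2(TPM + 0.5) scale. The paper, from the same libraries, lists Ankrd1 among its upregulated genes. In the controls 43.4% of tested genes had a lower mean level than Ankrd1, and in the SMKO aortas 84.2% did, so the transcript went from the middle of the expressed genes to a level near Lats2 and Yap1. In bulk tissue a change in the number of cells that make a transcript and a change in its amount per cell cannot be told apart. Ankrd1, Amotl2, Tead3 and Vgll4 overlap no other annotated gene, while the other 6 each overlap 1 to 3, whose reads may be counted with theirs.

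**Figure D1:**
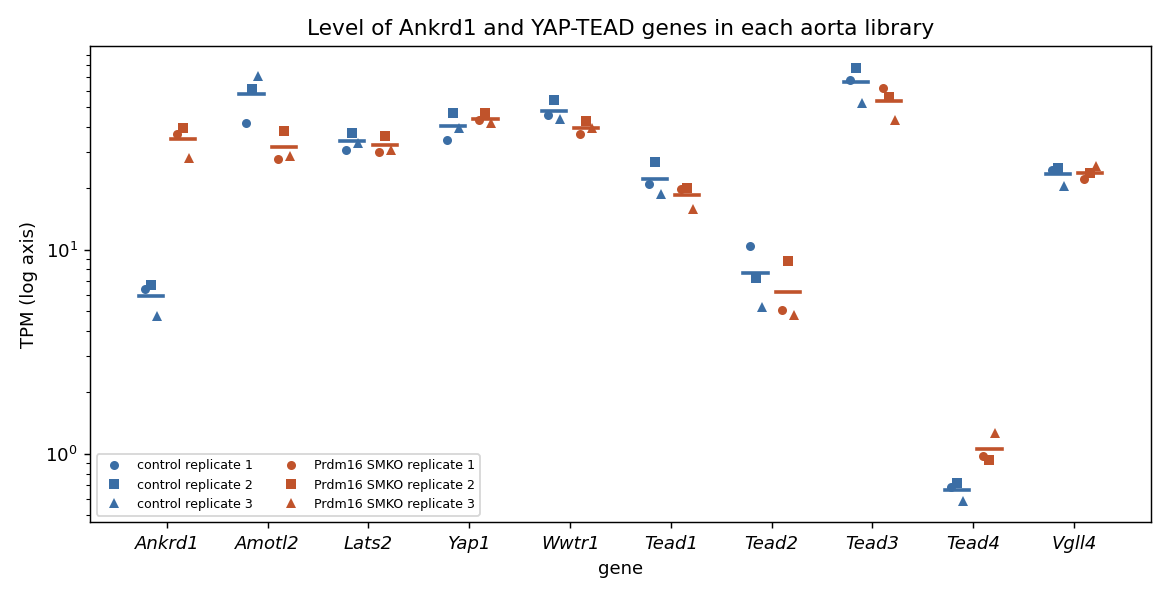
TPM (log axis) of each of the 10 genes in the 3 control libraries (blue) and the 3 Prdm16 SMKO libraries (orange), with the replicate shown by the symbol and the group mean by a bar. Ankrd1 lies at 4.74 to 6.67 TPM in the controls and 27.9 to 39.3 TPM in the SMKO libraries, the Tead4 and Amotl2 groups are also separated, Wwtr1 narrowly so, and the groups of the other 6 genes overlap.

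Amotl2, an angiomotin that binds YAP and retains it outside the nucleus and is itself a YAP/TAZ target, went the other way. It was at 41.7, 61.5 and 70.7 TPM in the controls and 27.8, 38.3 and 28.8 TPM in the SMKO libraries. The groups did not overlap, although control replicate 1 was only a little above SMKO replicate 2. The control mean was 57.9 ± 14.8 TPM (SD, n = 3) and the SMKO mean 31.6 ± 5.78 TPM (SD, n = 3). The log2 difference was -0.84 (SE 0.22). Ankrd1 and Amotl2, both read as YAP/TAZ targets, thus lay on opposite sides of the controls in the same libraries. The ratio of Ankrd1 to Amotl2 within a library, which does not depend on how libraries are scaled, was 0.154, 0.109 and 0.0671 in the controls and 1.33, 1.03 and 0.969 in the SMKO aortas.

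Lats2, the other member that is both regulator and target, encodes a Hippo kinase whose transcription YAP/TAZ can induce. Its level was 30.9, 37.4 and 33.4 TPM in the controls and 30.2, 36.1 and 30.7 TPM in the SMKO libraries. The groups overlapped, and the log2 difference was -0.07 (SE 0.15).

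The coactivators themselves differed little in level. Yap1 was at 34.3, 46.7 and 39.2 TPM in the controls and 43.0, 46.6 and 41.5 TPM in the SMKO libraries, with overlapping groups and a log2 difference of 0.13 (SE 0.16). Wwtr1 was at 45.8, 53.8 and 43.4 TPM in the controls and 37.0, 42.5 and 39.3 TPM in the SMKO libraries, all below the lowest control, with a log2 difference of -0.26 (SE 0.15). The gap between the groups was small beside the spread of the controls. Taken within each library, the Wwtr1 to Yap1 ratio was 1.34, 1.15 and 1.11 in the controls and 0.859, 0.911 and 0.946 in the SMKO aortas. TAZ transcripts thus outnumbered YAP transcripts in every control library and were outnumbered by them in every SMKO library, while the sum of both was 80.1 to 100.6 TPM and 80.0 to 89.1 TPM. Yap1 made up 45.6% ± 2.44 of that sum in the controls and 52.5% ± 1.20 in the SMKO aortas (SD, n = 3 each).

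**Figure D2:**
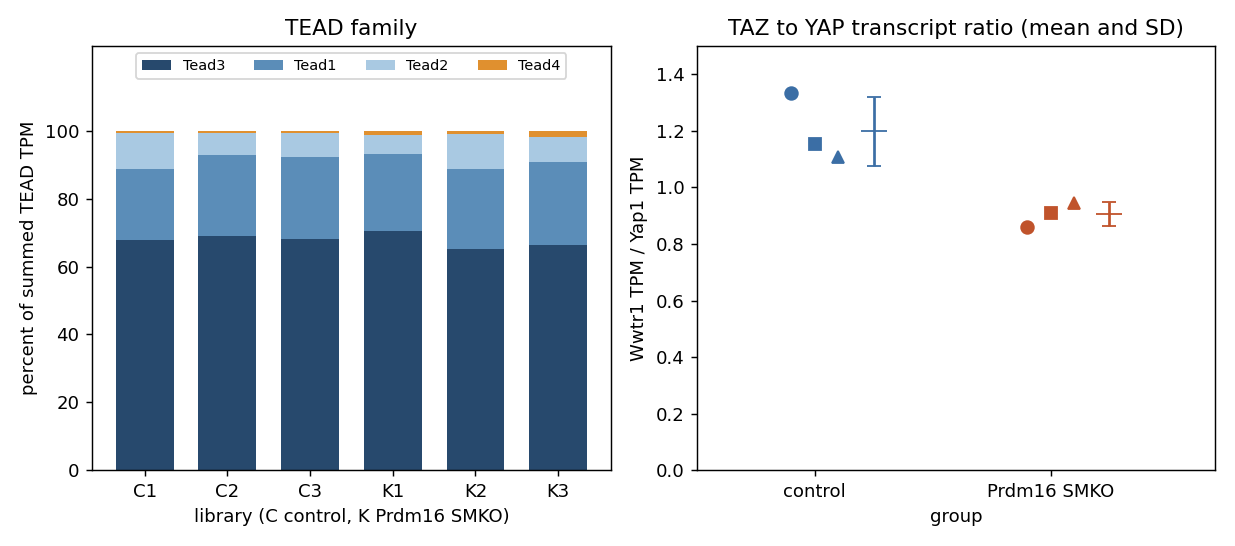
Left, the percent of the summed TEAD TPM held by each TEAD gene in every library; right, the ratio of Wwtr1 to Yap1 TPM per library with the group mean and SD (n = 3). Tead3 holds 65.1% to 70.4% of the TEAD sum in each of the 6 libraries, and the Wwtr1 to Yap1 ratio is above 1 in the 3 controls and below 1 in the 3 SMKO libraries.

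Among the TEAD factors, which carry the DNA-binding domain, Tead3 was the most abundant and Tead4 the scarcest in every library. Tead3 held 68.3% of the summed TEAD TPM in the controls and 67.3% in the SMKO aortas, Tead1 23.1% and 23.5%, and Tead2 7.92% and 7.82%. The composition of the family was therefore nearly the same in both genotypes. Tead3 stood at 67.6, 77.8 and 52.0 TPM in the controls and 61.6, 55.8 and 42.9 TPM in the SMKO libraries, a log2 difference of -0.30 (SE 0.20) with overlapping groups. Tead1 stood at 21.1, 27.0 and 18.7 TPM and at 19.9, 20.1 and 15.8 TPM, a log2 difference of -0.24 (SE 0.19), again with overlap. Tead2 varied most from library to library, from 5.22 to 10.45 TPM in the controls and from 4.77 to 8.80 TPM in the SMKO libraries, with a log2 difference of -0.28 (SE 0.30).

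Tead4 was the one TEAD gene whose groups did not overlap. It was at 0.69, 0.72 and 0.59 TPM in the controls and 0.98, 0.93 and 1.27 TPM in the SMKO libraries. These are low levels, and the log2 difference of 0.41 (SE 0.29) has a wide error. That SE depended on the fit, and was 0.17 without a variance trend. Its share of the TEAD sum was 0.700% ± 0.0670 in the controls and 1.39% ± 0.497 in the SMKO aortas (SD, n = 3 each). Vgll4, the TEAD-binding repressor, was at 24.4, 25.2 and 20.5 TPM in the controls and 22.1, 23.7 and 25.7 TPM in the SMKO libraries, with overlapping groups and a log2 difference of 0.03 (SE 0.15).

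Placed in order of mean level in the controls, the genes ran from Tead3 (65.8 TPM) through Amotl2, Wwtr1, Yap1 and Lats2 (33.9 TPM), each of which overlapped the next higher gene in range. Vgll4 (23.4 TPM) and Tead1 (22.2 TPM) followed without a gap between them, then Tead2 (7.65 TPM) and Ankrd1 (5.94 TPM), whose ranges overlapped, and last Tead4 (0.667 TPM). In the SMKO aortas Ankrd1 moved from the ninth to the fourth place, with a range that overlapped those of its neighbours Wwtr1 and Lats2, and Amotl2 moved from the second to the sixth.

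In all, 4 of the 10 genes had groups that did not overlap, Ankrd1 and Tead4 higher and Wwtr1 and Amotl2 lower in the SMKO aortas. Over all tested genes 12.8% did not overlap, 7.02% higher and 5.76% lower. Ankrd1 entered by its difference in these libraries, so nothing is read from that count. The median log2 difference of the 9 genes other than Ankrd1 was -0.24, beside 0.025 over all tested genes, and none of the 9 had an absolute difference over 1.

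**Figure D3:**
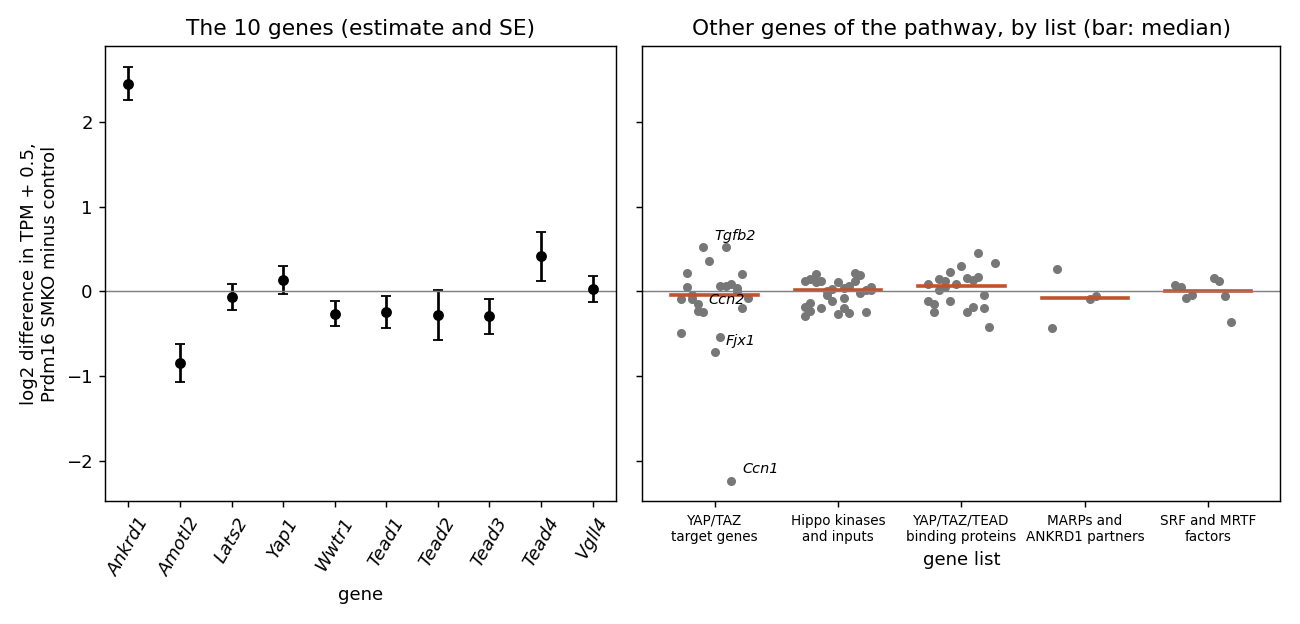
Log2 difference in TPM + 0.5, Prdm16 SMKO minus control: left, the 10 genes with the estimate and SE; right, the other tested genes of each pathway list, with the list median as a bar. Ankrd1 is at 2.45 and Amotl2 at -0.84, Ccn1 is at -2.23, and the list medians lie between -0.07 and 0.07.

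The rest of the pathway was read from 5 lists that hold 91 genes, of which 85 passed the minimum level. At an adjusted p under 0.05 (limma), 56 of the 15775 tested genes were called, 0.355%. None of the 85 was called, and 5 had an unadjusted p under 0.05, a level reached by 8.74% of all tested genes. At a share of 0.355% few or no calls would fall in lists of this size, so their absence is not read as a result. Groups did not overlap for 11 of the 85, 4 higher and 7 lower in the SMKO aortas, near the share over all genes. Lists made from knowledge of the pathway rather than from VSMCs hold genes that other signals also control.

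Of 24 other YAP/TAZ target genes, 23 were tested, 11 with a positive and 12 with a negative difference, and the median was -0.04. Unadjusted p was under 0.05 for 4 of them and adjusted p under 0.05 for 0 (limma), beside 8.74% and 0.355% over all tested genes. Ccn1, a matricellular protein and early YAP/TAZ target, gave the largest difference of the list. It was at 688, 699 and 519 TPM in the controls and 65.0, 211 and 175 TPM in the SMKO libraries. No SMKO library reached the lowest control, SMKO replicate 1 lay far below the other two, and the log2 difference was -2.23 (SE 0.39, adjusted p = 0.0638, limma). Without SMKO replicate 1 it was -1.71 with adjusted p = 0.0195, and over all 16 alternative settings adjusted p ran from 0.00875 to 0.252. The paper, by an RNA-seq analysis of its own, called far more genes at an adjusted p under 0.05. It lists Ccn1 among the downregulated genes and also reports less Ccn1 in SMKO aortas by qPCR.

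Fjx1, a secreted glycoprotein of the Fat and Dachsous pathway, and Arhgef17, a guanine nucleotide exchange factor, had the next largest differences of the list. Fjx1 was at 14.4, 20.5 and 11.9 TPM in the controls and 9.70, 9.75 and 7.91 TPM in the SMKO libraries, a log2 difference of -0.71 (SE 0.22, adjusted p = 0.354, limma). Arhgef17 was at 85.1, 105.9 and 64.7 TPM and at 62.2, 61.3 and 50.1 TPM, a difference of -0.53 (SE 0.20, adjusted p = 0.480, limma). Both had lower values in each SMKO library than in any control and neither passed the test. Tgfb2 and Ccn2, picked after their values were seen, are given beside them. Tgfb2, a TGF-β ligand, was at 19.7, 25.1 and 20.4 TPM in the controls and 32.3, 34.9 and 27.2 TPM in the SMKO libraries, a difference of 0.53 (SE 0.17, adjusted p = 0.379, limma). The paper lists Tgfb2 among its upregulated genes. Over the 23 tested targets the groups did not overlap for 6, of which Tgfb2 was higher and Ccn1, Fjx1, Arhgef17, Dlc1 and Dock5 were lower in the SMKO libraries, against the 7.02% higher and 5.76% lower over all tested genes. Dlc1, a GTPase-activating protein, and Dock5, a guanine nucleotide exchange factor, were named after their values were seen and differed by -0.25 (SE 0.15, adjusted p = 0.756, limma) and -0.19 (SE 0.18, adjusted p = 0.886, limma). Ccn2, the close relative of Ccn1, was at 1049, 1263 and 1215 TPM in the controls and 974, 1137 and 889 TPM in the SMKO libraries, with overlap and a difference of -0.24 (SE 0.17, adjusted p = 0.825, limma).

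Set against Ccn1 within a library, Ankrd1 stood at a ratio of 0.00930, 0.00955 and 0.00913 in the controls. In the SMKO aortas it was 0.567, 0.187 and 0.160, highest where Ccn1 was lowest. Against Ccn2 the ratio was 0.00390 to 0.00610 in the controls and 0.0314 to 0.0379 in the SMKO aortas. Since Ankrd1 was chosen by its rise in these libraries, a higher ratio follows from that choice, and these ratios are a description.

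**Figure D4:**
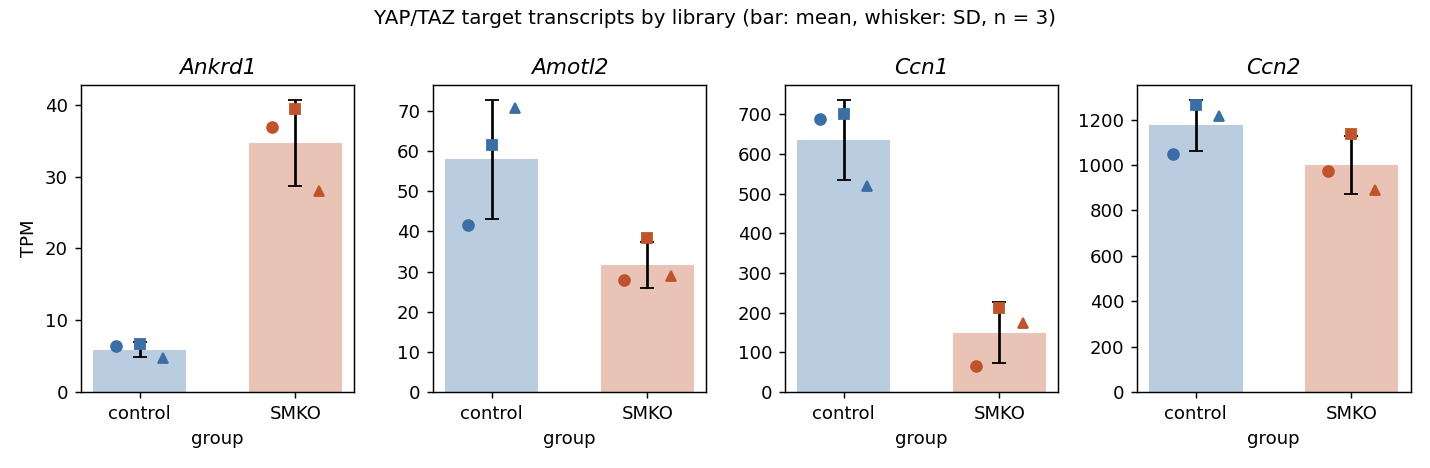
TPM of Ankrd1, Amotl2, Ccn1 and Ccn2 by library on linear axes from 0, with the group mean as a bar and the SD as a whisker (n = 3). Ankrd1 is higher in all 3 SMKO libraries than in any control, Amotl2 and Ccn1 are lower in all 3, and the Ccn2 groups overlap between 1049 and 1137 TPM.

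The Hippo kinase cascade and its inputs showed no called gene among 29 tested (0.355% over all tested genes). An unadjusted p under 0.05 was seen for 0 genes of this list (limma, 8.74% over all), and the median log2 difference was 0.01. Among its genes at 5 TPM or more the largest differences were those of Tnik, a Ste20-family kinase, at -0.30 (SE 0.24, adjusted p = 0.857), Rassf1, a scaffold of the MST kinases, at -0.26 (SE 0.18, adjusted p = 0.816), and Lats1, the partner kinase of Lats2, at -0.26 (SE 0.17, adjusted p = 0.808). Lats1 was at 14.3, 17.9 and 14.7 TPM in the controls and 11.7, 14.9 and 12.3 TPM in the SMKO libraries. All of these groups overlapped.

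Among 24 other proteins that bind YAP, TAZ or TEAD, 22 were tested and 0 were called (0.355% over all tested genes). Of the 22, 0 had an unadjusted p under 0.05 (limma, 8.74% over all), and the median was 0.07. Ywhag, a 14-3-3 protein of the kind that retains phosphorylated YAP in the cytoplasm, differed by 0.45 (SE 0.26, adjusted p = 0.734), with SMKO replicate 1 at 83.0 TPM and control replicate 2 at 62.6 TPM as the highest of their groups. Tjp1, the tight junction protein ZO-1, differed by 0.30 (SE 0.18, adjusted p = 0.748), and Wtip, an Ajuba-family LIM protein, by -0.24 (SE 0.16, adjusted p = 0.816). All 3 had overlapping groups. The Vgll4 relative Vgll2, picked after its values were seen, was under the minimum level for a test, at 0.82, 0.70 and 0.45 TPM in the controls and 0, 0.14 and 0.06 TPM in the SMKO libraries. Vgll1 was listed at 0 in all 6 libraries.

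No tested relative or partner of Ankrd1 had a difference near its 2.45. Of 7 listed, 4 were tested and 0 called (0.355% over all tested genes), too few for the absence of calls to be read. Of the 4, 1 had an unadjusted p under 0.05 (limma, 8.74% over all tested genes). That was Ankrd23, another muscle ankyrin repeat protein, at 9.78, 9.34 and 9.68 TPM in the controls and 8.24, 6.96 and 5.92 TPM in the SMKO libraries, a log2 difference of -0.43 (SE 0.17, adjusted p = 0.524). It lay lower in every SMKO library, opposite to Ankrd1. Ankrd2 was at 0 to 0.22 TPM in the controls and 0 to 0.29 TPM in the SMKO libraries, and Ttn, which encodes the sarcomeric partner titin, at 0.05 to 1.6 and 0.07 to 0.96 TPM. Ankrd2, Ttn and Mypn were under the minimum level for a test. Ybx1, which encodes YB-1, a nuclear partner of ANKRD1, differed by -0.05 (SE 0.15, adjusted p = 0.980). Casq2 was higher by 0.26 (SE 0.32) and Capn3 lower by -0.09 (SE 0.35), both with overlapping groups.

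SRF and its MRTF and myocardin cofactors form the other mechanically responsive program of smooth muscle, and several YAP/TAZ targets also respond to it. All 8 genes of that list were tested, with 0 called and 0 at an unadjusted p under 0.05 (limma). The shares over all tested genes were 0.355% and 8.74%. Srf was at 67.7, 88.8 and 60.7 TPM in the controls and 60.4, 59.6 and 47.7 TPM in the SMKO libraries, barely separated, with a log2 difference of -0.36 (SE 0.19, adjusted p = 0.683). Mrtfa differed by 0.16 (SE 0.20, adjusted p = 0.923) and Myocd, the smooth muscle and cardiac cofactor of SRF, by 0.13 (SE 0.19, adjusted p = 0.945), both with overlapping groups.

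The genes whose pattern over the 6 libraries was most like that of Ankrd1 were found among genes of at least 5 TPM by the root mean square difference of centred log2 values. Of the 5 closest, 4 are given here. H2-Q7, a nonclassical MHC class I gene, was at a difference of 0.37, with 6.29, 6.30 and 4.88 TPM in the controls and 19.99, 25.64 and 16.71 TPM in the SMKO libraries. Gvin1, an interferon-inducible GTPase, was at 0.44, H2-Q6, another MHC class I gene, at 0.46, and Reep1, an endoplasmic reticulum shaping protein, at 0.49. The groups of all 4 were separated, with each SMKO library above every control. H2-Q7 and H2-Q6 are near-identical copies whose reads may be shared. This likeness was measured over 6 libraries of which 3 differ in genotype, so a gene with a similar difference ranks high whatever its own control.

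Around Ankrd1 on chromosome 19, the 3 nearest tested genes on each side gave no called gene (0.355% over all tested genes). Unadjusted p was under 0.05 for Pcgf5 alone (limma, 8.74% over all). Rpp30, an RNase P subunit whose transcription start lies 36.4 kb from that of Ankrd1, was at 9.92, 8.19 and 7.42 TPM in the controls and 10.7, 8.94 and 10.8 TPM in the SMKO libraries, a log2 difference of 0.24 (SE 0.18, adjusted p = 0.833). Pcgf5, a Polycomb group RING finger protein with its start 228.2 kb away, was at 23.6, 24.7 and 23.2 TPM in the controls and 32.1, 34.0 and 29.3 TPM in the SMKO libraries, a difference of 0.41 (SE 0.14, adjusted p = 0.435, limma). Its groups were separated, at a much smaller ratio than that of Ankrd1. Pank1, Kif20b, Gm47773 and Gm9042 had overlapping groups, with log2 differences of 0.33, -0.03, 0.02 and -0.07.

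Ankrd1 is abundant in striated muscle, so its level was set beside markers of striated muscle and of other cells. The 15 cardiomyocyte markers summed to 42.3 to 64.5 TPM in the controls and 348 to 390 TPM in the SMKO libraries, and 7 of the 15 were under 0.5 TPM on average in both groups. Tnnt2, cardiac troponin T, made up nearly all of the difference, at 5.76 to 11.9 TPM in the controls and 304 to 346 TPM in the SMKO aortas, a log2 difference of 5.34 (SE 0.25, adjusted p = 0.000148, limma). Without it the remaining 14 markers summed to 37.5, 52.7 and 36.2 TPM in the controls and 44.0, 41.5 and 43.8 TPM in the SMKO libraries. The largest parts of that sum in the controls were Ryr2, Myl4 and Pln, with means of 15.8, 10.1 and 7.63 TPM. Their SMKO means were 13.7, 9.28 and 5.42 TPM, so the sum says little of the scarcer markers. Nkx2-5, a cardiac transcription factor, Myl7, an atrial myosin light chain, and Nppb, a natriuretic peptide, were at 0 in all 6 libraries, while Mybpc3, cardiac myosin-binding protein C, was at 0, 0.03 and 0 TPM in the controls and 0.38, 0.27 and 0.28 TPM in the SMKO libraries. Of the other cardiac markers Actc1, a cardiac actin, was at 0.83 to 5.10 TPM and 6.93 to 11.97 TPM, and Myh6, the atrial myosin heavy chain, at 0.92 to 2.09 TPM and 0.21 to 0.71 TPM. Of the 7 markers tested, 1 was called (0.355% over all tested genes) and 3 had an unadjusted p under 0.05 (limma, 8.74% over all tested genes). Groups did not overlap for 3 of the 7, Tnnt2 and Actc1 higher and Myh6 lower (12.8% over all tested genes). The part of cardiomyocytes in the Ankrd1 difference was not tested.

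The 13 skeletal muscle markers summed to 20.8, 17.8 and 9.33 TPM in the controls and 119.6, 11.6 and 9.21 TPM in the SMKO libraries. Of the 11 tested, 9 were higher, 0 were called and 0 had an unadjusted p under 0.05 (limma). Over all tested genes the shares called and at that unadjusted p were 0.355% and 8.74%. SMKO replicate 1 stood apart. Ankrd1 was at 36.9 TPM in that library and at 39.3 and 27.9 TPM in SMKO replicates 2 and 3. Without SMKO replicate 1 the log2 difference of Ankrd1 was 2.40 (SE 0.24). Beyond these values the part of skeletal muscle in the Ankrd1 difference was not tested.

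The 6 macrophage markers summed to 57.8 to 88.0 TPM in the controls and 88.0, 165.5 and 125.9 TPM in the SMKO libraries. All 6 were higher, 5 with an unadjusted p under 0.05 (8.74% over all tested genes) and 0 called (limma, 0.355% over all). The 8 endothelial markers summed to 224 to 282 TPM in the controls and 254, 481 and 300 TPM in the SMKO libraries. Of the 8, 0 were called and 2 had an unadjusted p under 0.05. The 6 fibroblast markers summed to 1138 to 1295 TPM in the controls and 935, 1669 and 1183 TPM in the SMKO libraries. Of the 6, 0 were called and 1 had an unadjusted p under 0.05 (limma). For both lists the shares over all tested genes were 0.355% and 8.74%. Of the endothelial markers at an unadjusted p under 0.05, Vwf was higher and Erg lower, with log2 differences of 0.90 and -0.50. The fibroblast marker was Col1a1, lower at -0.54. The part of macrophages, endothelial cells and fibroblasts in the Ankrd1 difference was not tested. The 6 adipocyte markers stood apart in SMKO replicate 3, at 2516 TPM against 462 to 1000 TPM in the other 5 libraries. Of these markers 0 were called (0.355% over all tested genes) and 1 had an unadjusted p under 0.05 (limma, 8.74% over all). SMKO replicate 3 had the lowest Ankrd1 of its group. In the controls the adipocyte sum was 1000, 620.9 and 489.2 TPM, with Ankrd1 at 6.40, 6.67 and 4.74 TPM. Without SMKO replicate 3 the log2 difference of Ankrd1 was 2.60 (SE 0.21). The part of adipocytes in the Ankrd1 difference was not tested. The 10 VSMC markers summed to 15200 to 25730 TPM in the controls and 11860 to 18140 TPM in the SMKO libraries. Of the 10, 7 were lower and 0 were called (0.355% over all tested genes). An unadjusted p under 0.05 was seen for 4 (limma, 8.74% over all). Those 4 did not share a direction. Cnn1 and Smtn were lower, with log2 differences of -0.48 and -0.53, and Actg2 and Des were higher, at 0.87 and 0.51.

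**Figure D5:**
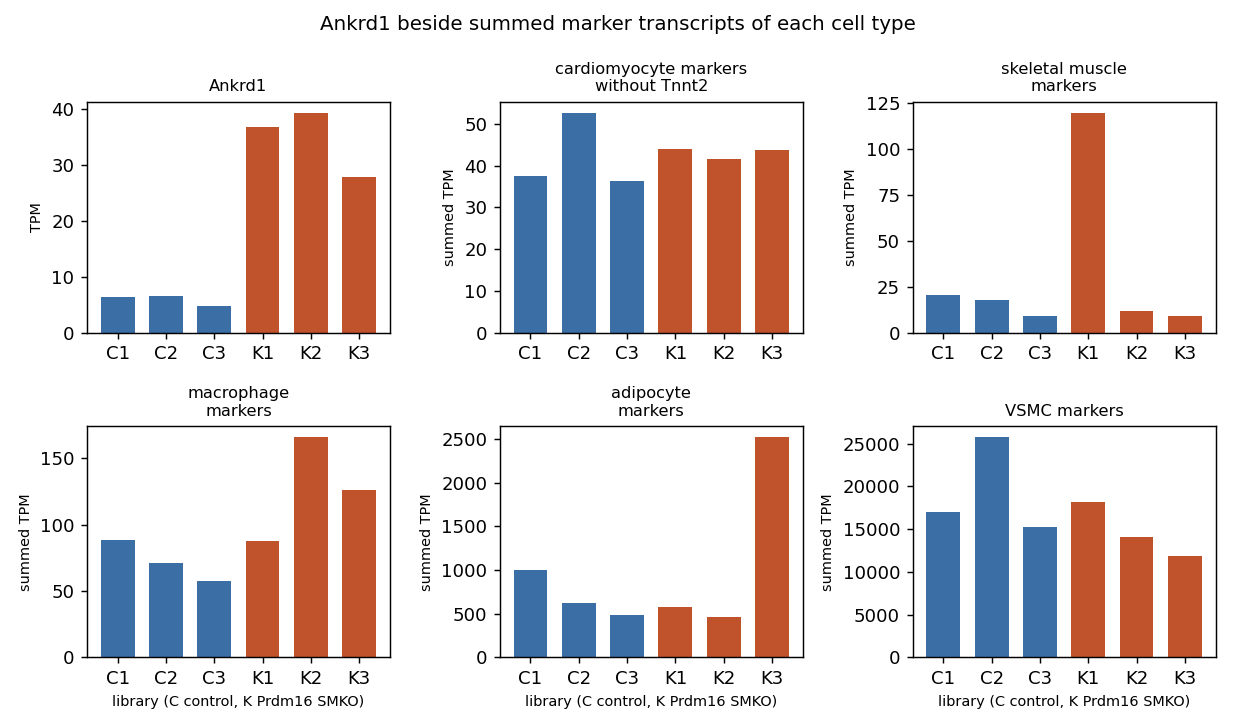
Ankrd1 TPM and the summed TPM of cardiomyocyte markers without Tnnt2, skeletal muscle, macrophage, adipocyte and VSMC markers in each control (C1 to C3) and Prdm16 SMKO (K1 to K3) library, on linear axes from 0. Ankrd1 is 27.9 to 39.3 TPM in all 3 SMKO libraries, while the skeletal muscle sum is high in K1 alone (119.6 TPM) and the adipocyte sum in K3 alone (2516 TPM).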

How the data were processed

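Libraries were sequenced as 151 bp pairs. Per the submitters' processing notes, reads were trimmed with cutadapt 2.3, aligned with STAR 2.7.8a to GRCm38 and quantified with RSEM 1.3.3; strand handling and annotation release are not given in the sources used here. The authors deposited TPM, which sums to 1000000 per library and keeps no read depth, so counting error cannot be given. From 20332 to 22100 genes were above 0. The 45S rRNA locus held 15.6% to 31.4% and mitochondrial genes 15.8% to 27.4% of TPM, overlapping between groups.

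Values were analysed as log2(TPM + 0.5), which understates changes of low genes, for 15775 genes averaging 0.5 TPM or more, in limma 3.58.1 (R 4.3.3) with a variance trend and Benjamini-Hochberg adjustment over all of them. An exact permutation test of 3 against 3 cannot go below p = 0.1 and was not used. The fit was tested on simulated data. The 10 genes, the lists and the cell type markers were chosen with earlier results of these data known. List genes were named if called or among the 3 largest differences of at least 5 TPM; the 5 genes most like Ankrd1 and its 3 tested neighbours on each side were also named. Of those 5, 1 is not reported here. Marker genes, Dlc1, Dock5, Tgfb2, Ccn2, Ankrd2, Ttn, Mypn, Casq2, Capn3, Vgll1 and Vgll2 were named after their values were seen. Positions are from GENCODE M21 and promoters from RefSeq (GRCm38.p6). Alternatives changed the pseudocount, minimum, scaling, weights and trend, added a replicate block, or left out a library.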

Additional observations from a re-analysis of the deposited data

How the results depend on the processing

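Over 16 alternative settings the log2 difference of Ankrd1 stayed between 2.31 and 2.60, and its range with each library left out in turn was the same. The sign of Vgll4 changed in 3 settings and that of Lats2 in 2, both near 0. Amotl2 was at -0.43 and Yap1 at 0.33 with array weights, and Tead4 at 0.59 with a pseudocount of 0.1; Tead4 could not be fitted at a minimum mean of 2 TPM. Called YAP/TAZ targets numbered 0, but 1 (Ccn1) at a minimum mean of 2 TPM, 2 (Ccn1 and Tgfb2) with array weights, and 0 to 1 with a library left out, the 1 being Ccn1 without Prdm16 SMKO replicate 1. The other lists had 0 called in every setting. Called genes over the whole table moved from 56 (51.8% higher) to 153 (39.2% higher) with median-of-ratios size factors, 129 (35.7% higher) with quantile normalization, 145 (44.8% higher) after rescaling without mitochondrial and 45S rRNA genes, 494 with array weights, 33 without a variance trend and 10 without a minimum. With control replicates 1, 2 and 3 left out in turn the counts were 17, 5 and 17, and 28 without SMKO replicate 2; without control replicate 2 the median of all genes was 0.11. With the replicate number as a block, 4 genes were called over all and 0 among the YAP/TAZ targets, and Ankrd1 was at 2.45. Same-numbered libraries deviated together with correlations of -0.13, -0.11 and 0.02, so the numbers were not taken to pair the samples. TPM keeps no depth, which limits what can be said of Tead4 and other low genes.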
